A study of Mus musculus with 6 samples.

Results

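The transcripts described here are 42 activity-regulated immediate early genes, compared by RNA sequencing between brains of 3 Kdm5c deficient and 3 wild-type mice, all adult males. They are 20 transcription factors, 4 phosphatases and 18 effectors, taken by gene symbol from a list of such genes. All 42 were found among the 43346 rows of the deposited count table, and all 42 were among the 15127 genes with enough reads to be tested. Kdm5c is X-linked and encodes a demethylase of histone H3 lysine 4. Mice of both genotypes were sons of females heterozygous for the deficiency, on C57BL/6, and 129 males without it, so their strain label reads C57BL/6 & 129 (50:50). The sources used here do not give the allele, the brain region, any treatment or the litters. The labels name 3 separate mice per genotype.

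Immediate early genes are switched on within minutes of synaptic or growth factor stimulation, without new protein synthesis. Calcium entry and ERK signalling activate factors bound beforehand at their promoters, among them CREB at cAMP response elements (CREs) and serum response factor at CArG boxes. The first wave encodes transcription factors such as Fos, Egr1 and Npas4, phosphatases that switch ERK and other MAP kinases off again, and effectors such as Arc and Homer1 that act at the synapse. In unstimulated brain their level follows recent neuronal activity.

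Sites of the kind CREB binds were looked for in the promoters. Promoter sequences from RefSeq on GRCm38.p6, each running from 250 bases before the start of transcription to 50 after it, were held for 32 of the 42 genes (48 promoters, some genes having several starts). Those of Nr4a3 (4:48045055-48045354), Klf2 (8:72318812-72319111) and Dusp6 (10:99262981-99263280) are shown because these genes rose in the deficient mice, and that of Fos (12:85473640-85473939) because it is the best studied promoter of the class. All are on the plus strand and written 5′ to 3′, and capitals mark the CRE core TGACG on either strand.
Nr4a3: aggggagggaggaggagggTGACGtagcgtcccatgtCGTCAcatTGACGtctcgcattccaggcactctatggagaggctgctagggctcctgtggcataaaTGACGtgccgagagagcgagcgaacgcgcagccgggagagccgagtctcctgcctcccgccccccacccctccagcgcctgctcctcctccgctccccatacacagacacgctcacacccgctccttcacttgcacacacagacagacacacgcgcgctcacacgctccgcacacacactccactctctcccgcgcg
Klf2: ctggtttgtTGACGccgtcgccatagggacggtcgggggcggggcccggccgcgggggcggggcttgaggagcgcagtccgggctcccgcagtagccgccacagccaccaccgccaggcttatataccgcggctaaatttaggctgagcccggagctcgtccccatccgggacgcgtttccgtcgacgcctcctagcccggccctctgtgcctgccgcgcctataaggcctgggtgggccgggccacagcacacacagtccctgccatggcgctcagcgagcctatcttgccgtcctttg
Dusp6: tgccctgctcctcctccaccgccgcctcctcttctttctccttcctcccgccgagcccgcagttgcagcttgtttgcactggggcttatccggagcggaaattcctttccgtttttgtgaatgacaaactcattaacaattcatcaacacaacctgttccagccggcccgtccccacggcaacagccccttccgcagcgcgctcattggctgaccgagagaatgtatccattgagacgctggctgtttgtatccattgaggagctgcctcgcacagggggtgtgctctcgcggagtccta
Fos: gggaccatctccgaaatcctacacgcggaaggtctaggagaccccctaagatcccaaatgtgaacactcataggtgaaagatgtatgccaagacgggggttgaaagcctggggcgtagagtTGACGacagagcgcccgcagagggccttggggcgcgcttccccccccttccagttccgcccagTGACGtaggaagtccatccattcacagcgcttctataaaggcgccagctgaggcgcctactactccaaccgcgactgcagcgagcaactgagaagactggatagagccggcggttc
The Nr4a3 promoter held 4 cores, beginning 231, 213, 205 and 147 bases before the start. That of Fos held 2, at 129 and 66 bases before the start, with a TATAAA at 33. The Klf2 promoter held 1 core at 241 bases before the start and 1 Egr site (GCGNGGGCG) at 199, and the Dusp6 promoter held none of the motifs searched. Across the class, TGACG on either strand was found in 29 of 48 promoters (60.4%), from 23 genes, against 20.8% of all 32851 promoters in the table. The full CRE TGACGTCA, which contains the core, was in 4 promoters (8.33%, against 1.79% of all), those of Btg2, Dusp1, Maff and Plk2. The CArG box was in 5 promoters of Dusp5 and Egr2 (10.4%, against 1.63%), the Egr site in 10 (20.8%, against 5.55%) and TATAAA in 7 (14.6%, against 13.6%). Both strands were searched for each motif, and a match is a description of these letters, not a measured binding site.

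Libraries held 21090278, 24178704 and 21945675 counts in deficient mice 1, 2 and 3, against 24555412, 20221675 and 22956590 counts in wild-type mice 1, 2 and 3. Kdm5c itself had 73.9, 65.5 and 78.9 CPM (counts scaled to the library total) in deficient mice, against 77.6, 82.8 and 84.0 CPM in wild-type mice, and the groups overlap (log2 fold change −0.16 ± 0.07 SE, edgeR adjusted p = 0.196). Gene-level counts do not resolve exons, so this transcript does not check the labels. No marker list of brain cell types had a gene without reads in every mouse. Deficient mouse 2 stands apart, since 12 markers of the cerebellum summed to 1634, 405 and 1240 CPM in deficient mice, against 1769, 1857 and 1965 CPM in wild-type mice. Gabra6, a receptor subunit of cerebellar granule cells, had 116, 5.50 and 89.2 CPM in deficient mice, against 131, 131 and 149.9 CPM in wild-type mice. The 12 markers of excitatory neurons summed to 4146, 5548 and 5057 CPM in deficient mice, against 4018, 3778 and 4330 CPM in wild-type mice, so the sum was highest in deficient mouse 2. With all mice, none of either list passed edgeR's test or limma-voom. DESeq2 called 2 excitatory markers higher and 1 lower, where it called 7.99% of all genes tested. At an unadjusted p under 0.05 in edgeR's test, 5 excitatory markers were higher, 2 lower, and 3 cerebellar markers lower. Of all genes tested, 12.1% were higher and 12.8% lower by that rule. Without deficient mouse 1, edgeR's test called 6 excitatory markers higher, 1 lower, and 3 cerebellar markers lower. Of all genes tested, 13.6% were then called. In bulk tissue, fewer cells of a type and less RNA per cell cannot be told apart. Whether the dissection of deficient mouse 2 differed from that of the other mice was not tested.

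As a class the immediate early genes were somewhat higher in the deficient mice, by small amounts. Together they made up 0.147, 0.155 and 0.163% of the counts in deficient mice, against 0.128, 0.121 and 0.138% in wild-type mice, without overlap. Such a sum gives the abundant genes most weight. With each gene weighted alike, wild-type mouse 3 was nearly level with deficient mouse 2 (mean log2 deviations of 0.03 and 0.04). Egr1, Nr4a3, Klf2 and Dusp6 rose past the threshold of 0.05 on the Benjamini-Hochberg adjusted p of edgeR's quasi-likelihood test, which is 9.52% of the 42, where 2.45% of all genes tested were higher and passed. None was called lower, where 2.48% of all genes tested were. Limma-voom called none lower either, DESeq2 called Dusp5 lower, and 2 were lower at an unadjusted p under 0.05 in edgeR's test. In either direction, 4.93% of all genes tested were called.

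The log2 fold change, deficient over wild type, was above 0 for 35 of 42 genes (83.3%), where 50.3% of all genes tested were above 0. Its median was 0.24 over the 42, with quartiles of 0.09 and 0.38 and a range from −0.72 to 0.58, and 0.001 over all genes tested. In 20 genes (47.6%) every deficient mouse had a higher CPM than every wild-type mouse, where this held for 14.9% of all genes tested. In Dusp5 alone every deficient mouse was lower than every wild-type mouse, where 16% of all genes tested were. At an adjusted p under 0.1, 16 were higher and 1 lower, where the shares among all genes tested were 5.67% and 6.18% (11.8% together). At an unadjusted p under 0.05, 20 were higher and 2 lower, where the shares were 12.1% and 12.8%. These genes are known to be induced by common signals, so their counts are not those of independent genes.

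The calls depended on single mice, and the median did so less. Without deficient mouse 2, 4 genes were called, namely Dusp6, Jun, Klf2 and Nr4a3, where 2.35% of all genes tested were called higher, and the median log2 fold change was 0.26. Without deficient mouse 1, 15 were called, where 13.6% of all genes tested were. Without wild-type mouse 3, Dusp6 alone was called, where 0.648% of all genes tested were. Without deficient mouse 3, wild-type mouse 1 or wild-type mouse 2, none was called in edgeR's test, and the shares of all genes tested were then only 1.01%, 0.289% and 0.346%. Over the 6 omissions the median stayed between 0.19 and 0.32, and 33 to 35 genes stayed above 0.

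**Figure D1:**
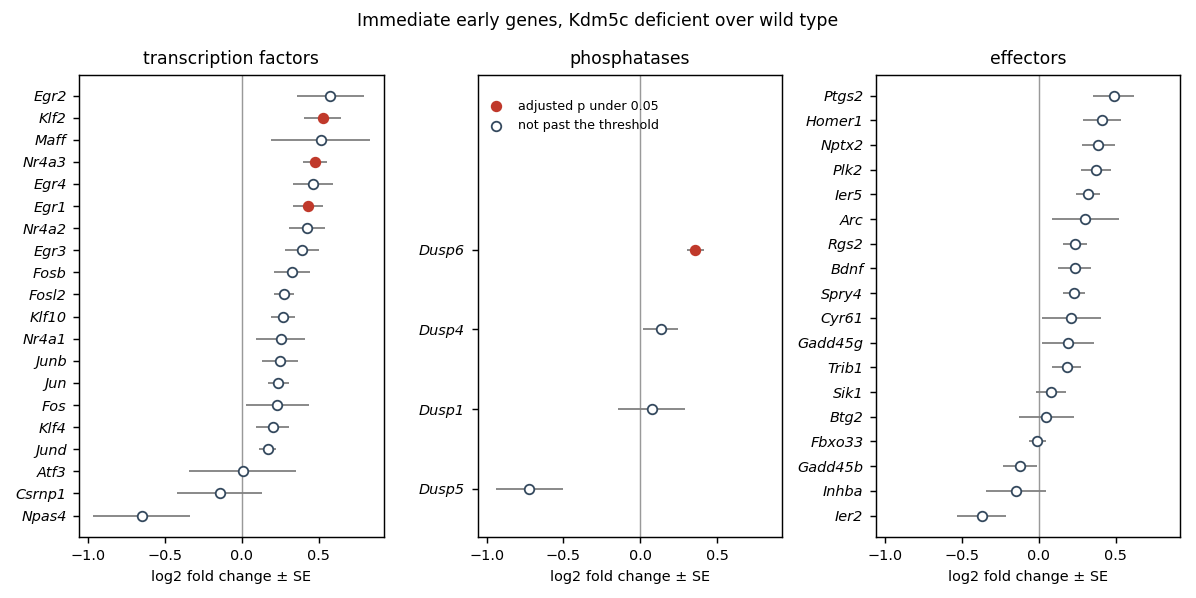
Log2 fold change of each immediate early gene, Kdm5c deficient over wild type (points, bars ± SE, n = 3 mice each), in 3 panels by class; filled points have an adjusted p under 0.05. Of the 42 points 35 lie right of 0, and Dusp5 at −0.72 and Npas4 at −0.65 lie farthest left.

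The transcription factors held 3 of the 4 calls. Of 20, 18 had a log2 fold change above 0, against 50.3% of all genes tested. In 13 every deficient mouse was above every wild-type mouse, against 14.9%. At an adjusted p under 0.1 in edgeR's test, 10 were higher, against 5.67%, and the median log2 fold change was 0.27. None was called lower in edgeR's test at either threshold, none was lower at an unadjusted p under 0.05, and DESeq2 called 7 higher and none lower, where it called 3.98% of all genes tested higher. Without deficient mouse 1, 8 were called higher, where 7.16% of all genes tested were. Without deficient mouse 2, 3 were called higher, where 2.35% of all genes tested were, with a median of 0.30. Without deficient mouse 3 or any 1 of the wild-type mice, none was called in edgeR's test, with the shares of all genes tested given above.

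Among the zinc finger factors of the Egr family, which bind GC-rich sites in late response genes, Egr1 (ENSMUSG00000038418, GRCm38 18:34859823-34864984, plus strand, 2 exons) had 149.9, 175 and 188 CPM in deficient mice, against 124, 114 and 142 CPM in wild-type mice. All 3 deficient mice lie above all 3 wild-type mice, but deficient mouse 1 and wild-type mouse 3 lie close together. The means were 171 ± 19.2 CPM in deficient and 127 ± 14.2 CPM in wild-type mice (SD, n = 3 each), a log2 fold change of 0.43 ± 0.10 SE with an edgeR adjusted p of 0.0447. Egr1 passed the test without deficient mouse 1 and in none of the other omissions of a mouse, over which its adjusted p ran from 0.00972 to 0.176.

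Egr3, a relative also induced in neurons, had 25.6, 34.9 and 33.3 CPM in deficient mice, against 23.0, 23.4 and 25.1 CPM in wild-type mice (0.39 ± 0.11, edgeR adjusted p = 0.0755). Deficient mouse 1 was nearest to the wild-type mice here too, without overlap. Egr4 gave 0.46 ± 0.13 with an adjusted p of 0.0795, and Egr2 gave 0.58 ± 0.22 with an adjusted p of 0.145 at 1.82 to 4.28 CPM in single mice. All 4 Egr genes therefore had every deficient mouse above every wild-type mouse, and 1 of the 4 passed.

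The Nr4a genes encode orphan nuclear receptors that cAMP and calcium induce. Nr4a3 (ENSMUSG00000028341, 4:48045153-48086447, plus strand, 8 exons), whose promoter held the 4 CRE cores shown above, had 32.2, 39.2 and 34.3 CPM in deficient mice, against 25.8, 24.2 and 26.1 CPM in wild-type mice. The wild-type mice lie within 2 CPM of each other, and all deficient mice lie above them. The means were 35.3 ± 3.59 CPM in deficient and 25.4 ± 0.994 CPM in wild-type mice (SD, n = 3 each), a log2 fold change of 0.48 ± 0.08 with an edgeR adjusted p of 0.0226. It passed without deficient mouse 1 or 2 (adjusted p = 0.00804 and 0.0131) and not without any of the other 4 mice, where the adjusted p reached 0.107.

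Nr4a2 had 39.0, 55.9 and 45.9 CPM in deficient mice, against 34.7, 32.8 and 37.5 CPM in wild-type mice (0.42 ± 0.12, edgeR adjusted p = 0.0767). The groups do not overlap, and deficient mouse 2 is highest, as it was for Nr4a3. Nr4a1, the member most often used as an activity marker, had 38.4, 30.4 and 48.3 CPM in deficient mice, against 35.6, 27.4 and 35.1 CPM in wild-type mice. These overlap, with deficient mouse 2 below 2 of the wild-type mice (0.25 ± 0.16, adjusted p = 0.363).

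Krüppel-like factors are zinc finger regulators, and Klf2 is known above all from endothelial cells, where blood flow induces it. Klf2 (ENSMUSG00000055148, 8:72319033-72321656, plus strand, 3 exons) had 8.37, 7.01 and 7.23 CPM in deficient mice, against 5.38, 5.58 and 4.72 CPM in wild-type mice, without overlap. The means were 7.53 ± 0.729 CPM in deficient and 5.23 ± 0.448 CPM in wild-type mice (SD, n = 3 each), a log2 fold change of 0.53 ± 0.12 with an edgeR adjusted p of 0.0445. It passed without deficient mouse 1 or 2 (0.0495 and 0.0377), not without any of the other 4 mice (up to 0.133), and not when library totals were left unscaled (0.0550). The 12 endothelial and mural cell markers summed to 459, 439.6 and 416 CPM in deficient mice, against 422, 382 and 406 CPM in wild-type mice. None of the 12 passed edgeR's test. At an unadjusted p under 0.05 in that test, 4 were higher and 0 lower, against 12.1% and 12.8% of all genes tested. DESeq2 called 2 of the 12 higher, where it called 3.98% of all genes tested higher. In 4 of the 12 every deficient mouse was above every wild-type mouse, against 14.9% of all genes tested. The part of these markers in the Klf2 difference was not tested. Klf10 gave 0.27 ± 0.08 (adjusted p = 0.0820) and Klf4 0.20 ± 0.11 (adjusted p = 0.282), both without overlap between genotypes.

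Fos and Jun proteins pair to form AP-1. Fos (12:85473890-85477273) had 17.1, 10.9 and 16.3 CPM in deficient mice, against 10.04, 11.7 and 16.0 CPM in wild-type mice, so the groups overlap over nearly their whole range. Its means were 14.8 ± 3.37 CPM in deficient and 12.6 ± 3.08 CPM in wild-type mice (SD, n = 3 each), with a log2 fold change of 0.23 ± 0.20 and an edgeR adjusted p of 0.519. Thus the founding member of the class did not differ beyond the spread between mice. Fosl2, a slower Fos relative, had 25.9, 29.0 and 28.9 CPM in deficient mice, against 23.5, 22.8 and 23.0 CPM in wild-type mice (0.27 ± 0.07, adjusted p = 0.0508). The wild-type mice are nearly level and all deficient mice lie above them, just short of the threshold.

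Jun had 75.1, 66.4 and 74.6 CPM in deficient mice, against 63.3, 56.8 and 63.1 CPM in wild-type mice (0.24 ± 0.07, edgeR adjusted p = 0.0767), without overlap. Fosb and Jund were also without overlap, at 0.32 ± 0.12 (adjusted p = 0.138) and 0.17 ± 0.05 (adjusted p = 0.0992). Junb was higher in 2 of the 3 deficient mice than in any wild-type mouse (0.24 ± 0.12, adjusted p = 0.235). Exons of Jun, Junb and Jund overlap those of genes on the other strand, so their values are uncertain to that extent.

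Npas4, a neuronal factor that calcium influx induces and that shapes inhibitory synapses, ran the other way in its mean. It had 5.03, 5.50 and 7.14 CPM in deficient mice, against 7.81, 5.48 and 14.4 CPM in wild-type mice. The groups overlap, and wild-type mouse 3 stands well above every other mouse. The means were 5.89 ± 1.11 CPM in deficient and 9.23 ± 4.62 CPM in wild-type mice (SD, n = 3 each), with a log2 fold change of −0.65 ± 0.32 and an edgeR adjusted p of 0.239. Without wild-type mouse 3 the log2 fold change was −0.18.

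The remaining transcription factors are scarce in these libraries. Maff, a small Maf protein, gave 0.51 ± 0.32 (edgeR adjusted p = 0.354), Atf3, a stress-induced bZIP factor, gave 0.0045 ± 0.35 (adjusted p = 0.995), and Csrnp1 gave −0.15 ± 0.28 (adjusted p = 0.828). Each had under 2 CPM in every mouse, and their wide errors leave changes of the size seen in Egr1 undetectable at this depth.

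**Figure D2:**
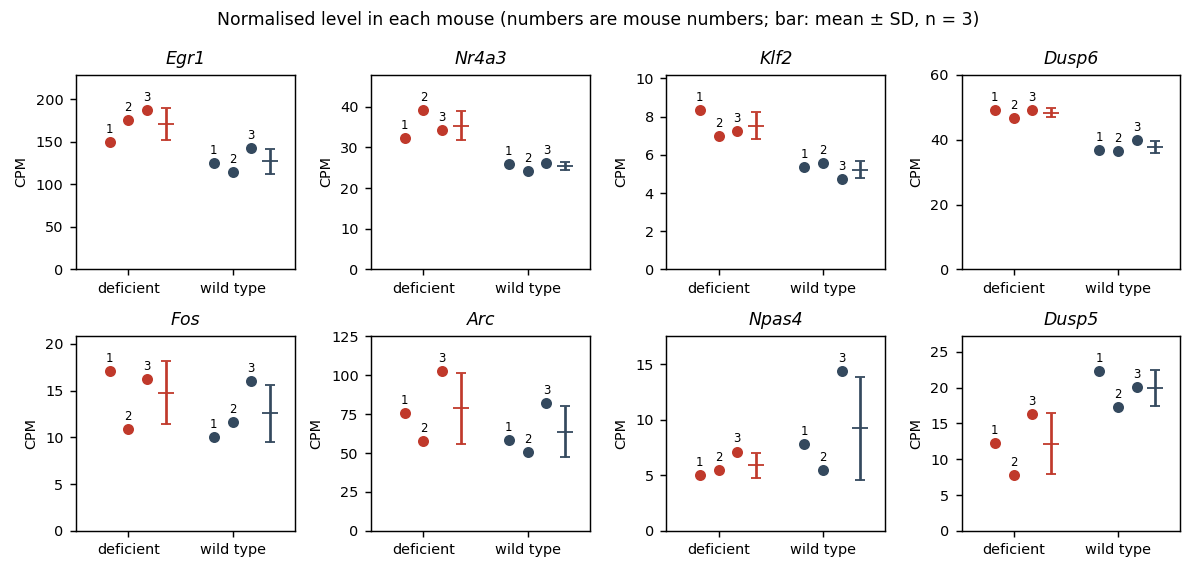
CPM in each mouse (points numbered by mouse) for the 4 called genes in the upper row and for Fos, Arc, Npas4 and Dusp5 in the lower row, with the mean ± SD (n = 3) beside each genotype; axes start at 0. Deficient mice lie above all wild-type mice in the upper row, Fos, Arc and Npas4 overlap, and all deficient mice lie below wild-type mice for Dusp5.

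The 4 phosphatases, which take phosphate off MAP kinases, did not share a direction. Of the 4, 1 was called higher by edgeR's test and none lower, against 2.45% and 2.48% of all genes tested. The higher call held in 3 of the 6 omissions of a mouse. Of all genes tested, 7.16% were called higher with deficient mouse 1 left out and 2.35% with deficient mouse 2 left out. Leaving out wild-type mouse 3 gave 0.373%. Dusp5 was lower at an unadjusted p under 0.05 in edgeR's test, against 12.8% of all genes tested. DESeq2 also called Dusp5 lower, where it called 7.99% of all genes tested in either direction. Dusp6, an ERK phosphatase of the cytoplasm that ERK signalling itself induces, rose. Dusp6 (ENSMUSG00000019960, 10:99263231-99267489, plus strand, 3 exons) had 49.2, 46.6 and 49.3 CPM in deficient mice, against 36.7, 36.6 and 39.9 CPM in wild-type mice. The mice of each genotype are tightly grouped and the genotypes are well apart. Means of 48.3 ± 1.49 CPM in deficient and 37.7 ± 1.88 CPM in wild-type mice (SD, n = 3 each) gave a log2 fold change of 0.36 ± 0.06 with an edgeR adjusted p of 0.0193, the smallest among the 42. It passed in 3 of the 6 omissions of a mouse, and not without deficient mouse 3 (adjusted p = 0.0536), wild-type mouse 1 (0.0925) or wild-type mouse 2 (0.102).

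Dusp5, an ERK phosphatase of the nucleus, had 12.2, 7.85 and 16.4 CPM in deficient mice, against 22.3, 17.4 and 20.1 CPM in wild-type mice (19:53529109-53542431). Every deficient mouse lies below every wild-type mouse, deficient mouse 2 being lowest and deficient mouse 3 near the wild-type range. The log2 fold change of −0.72 ± 0.22 is the lowest of the class, with an edgeR adjusted p of 0.0934. An exon of a gene on the opposite strand overlaps Dusp5, and without a stated use of strand their reads cannot be told apart. Both ERK phosphatases thus gave log2 fold changes of opposite sign: Dusp6 passed the test and Dusp5 did not.

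Dusp1 and Dusp4, nuclear phosphatases of ERK, p38 and JNK, overlapped between genotypes. Dusp1 had 29.0, 20.0 and 34.3 CPM in deficient mice, against 22.6, 21.8 and 34.7 CPM in wild-type mice (0.07 ± 0.22, edgeR adjusted p = 0.868). Dusp4 had 9.78, 9.40 and 12.1 CPM in deficient mice, against 9.47, 9.69 and 9.36 CPM in wild-type mice (0.13 ± 0.11, adjusted p = 0.498). For Dusp1 mouse 3 was highest in both genotypes, and for Dusp4 deficient mouse 3 alone stood out.

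None of the 18 effectors passed edgeR's test. At an unadjusted p under 0.05 in that test, 7 were higher and 1 lower, against 12.1% and 12.8% of all genes tested. DESeq2 called 5 higher and none lower, where it called 3.98% of all genes tested higher. Log2 fold changes of the effectors were above 0 in 14 of 18, against 50.3% of all genes tested, with a median of 0.22. In 6 every deficient mouse was above every wild-type mouse, against 14.9% of all genes tested. At an adjusted p under 0.1, 5 were higher and none lower in edgeR's test, against 5.67% and 6.18% of all genes tested. Those 5 are Ier5, Plk2, Ptgs2, Nptx2 and Homer1. Without deficient mouse 1, 6 of the 18 were called higher, where 7.16% of all genes tested were. Without any 1 of the other mice none was, with the shares of all genes tested given above. The median without deficient mouse 2 was 0.23.

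Plk2, a kinase that weakens synapses after prolonged activity, had 162, 208 and 189 CPM in deficient mice, against 148, 128 and 155 CPM in wild-type mice (0.37 ± 0.10, edgeR adjusted p = 0.0636). Nptx2, a secreted pentraxin that gathers AMPA receptors on inhibitory neurons, had 31.2, 41.8 and 38.9 CPM in deficient mice, against 29.1, 26.2 and 30.4 CPM in wild-type mice (0.39 ± 0.11, adjusted p = 0.0750). Ptgs2, the inducible cyclooxygenase, had 9.31, 12.5 and 11.5 CPM in deficient mice, against 8.58, 6.997 and 8.13 CPM in wild-type mice (0.49 ± 0.13, adjusted p = 0.0698). All 3 genes were highest in deficient mouse 2, lowest of the deficient mice in mouse 1, and without overlap between genotypes.

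Homer1, a scaffold of metabotropic glutamate receptors whose short form is activity-induced, had 138, 198 and 191 CPM in deficient mice, against 127, 128 and 141 CPM in wild-type mice (0.41 ± 0.12, edgeR adjusted p = 0.0861). Deficient mouse 1 lay just under wild-type mouse 3, and the other two deficient mice well above. The counts do not separate the short form from the long ones. Without deficient mouse 1 the log2 fold change was 0.56 (adjusted p = 0.00279), and without deficient mouse 2 it was 0.32 (adjusted p = 0.142). Ier5, a nuclear regulator of the heat shock response, had 55.1, 65.8 and 64.1 CPM in deficient mice, against 47.1, 47.8 and 53.4 CPM in wild-type mice (0.32 ± 0.08, adjusted p = 0.0550). Its groups do not overlap, and deficient mouse 1 lies within 2 CPM of wild-type mouse 3.

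Arc, which drives endocytosis of AMPA receptors, did not differ beyond its spread within genotype. Arc (15:74669083-74672570) had 76.0, 57.5 and 103 CPM in deficient mice, against 58.7, 50.5 and 81.9 CPM in wild-type mice. In both genotypes mouse 2 was lowest and mouse 3 highest, and the groups overlap. The means were 78.7 ± 22.8 CPM in deficient and 63.7 ± 16.3 CPM in wild-type mice (SD, n = 3 each), with a log2 fold change of 0.30 ± 0.22 and an edgeR adjusted p of 0.422. With the replicate number as a block in edgeR's fit, the adjusted p of Arc was 0.0841, still short of the threshold. Bdnf, a neurotrophin released by active neurons, had 19.1, 25.9 and 21.6 CPM in deficient mice, against 19.6, 19.0 and 18.1 CPM in wild-type mice (0.23 ± 0.11, adjusted p = 0.217). Deficient mouse 1 lay among the wild-type mice, and an antisense gene overlaps the Bdnf exons.

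The effectors of signalling feedback Rgs2, which shortens signalling by Gq proteins, and Spry4, which damps receptor tyrosine kinase signalling to ERK, were without overlap, at 0.24 ± 0.08 (edgeR adjusted p = 0.106) and 0.23 ± 0.07 (adjusted p = 0.103). Trib1, a pseudokinase, gave 0.18 ± 0.09 and Sik1, a kinase that restrains CREB coactivators, 0.08 ± 0.10. Of the growth arrest genes, Gadd45g gave 0.19 ± 0.17, Btg2 0.05 ± 0.18 and Gadd45b −0.12 ± 0.11. Ier2 had the lowest value of the effectors, −0.37 ± 0.16, with an adjusted p of 0.197. Cyr61, a matrix protein, gave 0.21 ± 0.19, Inhba, the activin A subunit, −0.15 ± 0.20, and Fbxo33, an F-box protein, −0.0080 ± 0.06. The edgeR adjusted p was 0.266 for Trib1 and 0.511 to 0.943 for the others whose p is not given here, and all of these overlapped between genotypes.

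Levels per length, in CPM per kilobase of annotated exon, covered a wide range within the class. Jund was most abundant, at 70.7 ± 4.02 in deficient and 63.0 ± 1.24 in wild-type mice, followed by Plk2 at 41.5 ± 5.10 and 32.0 ± 3.07 and Egr1 at 38.1 ± 4.28 and 28.3 ± 3.16 (SD, n = 3 each). Arc stood at 25.8 ± 7.45 in deficient and 20.8 ± 5.32 in wild-type mice, and Jun at 22.6 ± 1.53 and 19.1 ± 1.17, so this pair cannot be ordered beyond the spread of Arc. Csrnp1 was least abundant, at 0.137 ± 0.0181 in deficient and 0.153 ± 0.0121 in wild-type mice.

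Immediate early genes also varied more between mice of 1 genotype than most genes did. The SD of log2 CPM within genotype had a median of 0.169 over the 42, and 0.106 over all genes tested. It was highest for Npas4 (0.529), Atf3 (0.471), Maff (0.451), Dusp5 (0.398), Arc (0.389), Dusp1 (0.385) and Fos (0.349), and lowest for Spry4 (0.044), Dusp6 (0.059), Jund (0.061), Fbxo33 (0.065) and Fosl2 (0.069). Arc at 0.30 ± 0.22 and Fosl2 at 0.27 ± 0.07 had similar log2 fold changes, and the errors set them far apart in adjusted p. With 3 mice against 3, an exact permutation test of 1 gene cannot give a two-sided p below 0.1, and every gene without overlap has that p.

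The 3 deficient mice contributed differently. Deficient mouse 2 had the highest level of all 6 mice for 14 genes: Fosb, Fosl2, Egr3, Egr4, Nr4a2, Nr4a3, Ier5, Homer1, Bdnf, Nptx2, Ptgs2, Plk2, Inhba and Rgs2. The same mouse had the lowest level for 4, namely Dusp1, Dusp5, Ier2 and Gadd45b. Deficient mouse 1 was highest for 11, among them Fos, Jun, Junb, Jund, Egr2 and Klf2, and deficient mouse 3 for 9, among them Egr1, Nr4a1, Dusp6 and Arc. Wild-type mouse 2 was highest for none and lowest for 19, and wild-type mouse 1 was highest for 2 and lowest for 10. Wild-type mouse 3 was highest for 6, namely Npas4, Atf3, Csrnp1, Dusp1, Ier2 and Cyr61. Over all genes tested, deficient mouse 2 was highest for 25.3% and lowest for 26.9%, and wild-type mouse 2 highest for 20.5% and lowest for 20.8%.

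**Figure D3:**
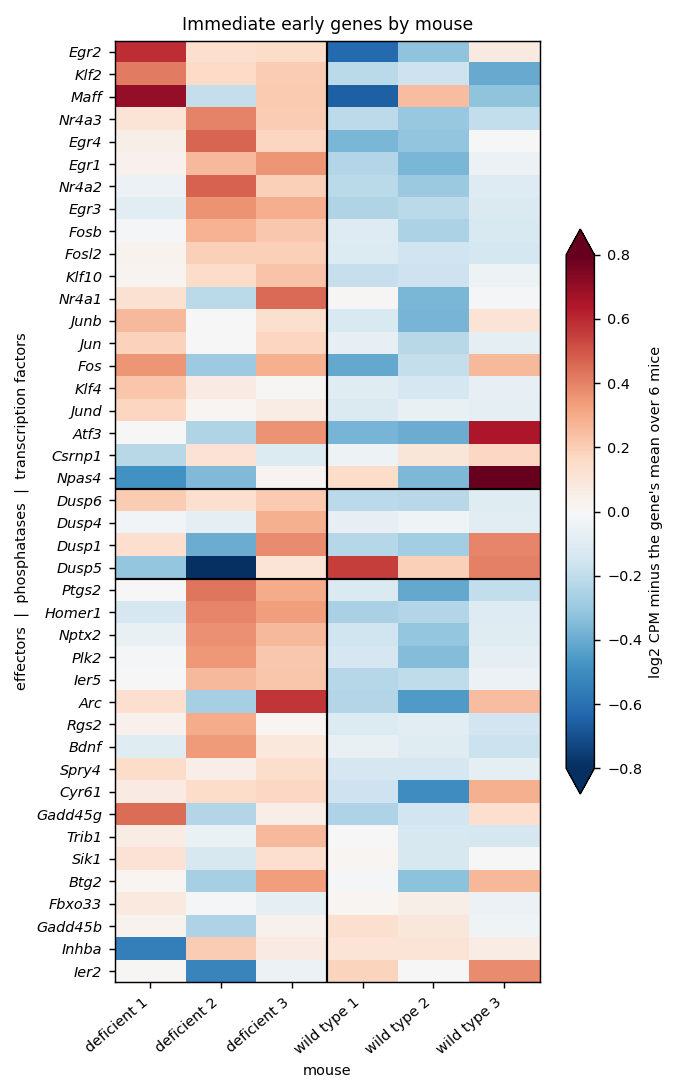
Log2 CPM of each immediate early gene minus its mean over the 6 mice, by mouse (columns, deficient left of wild type) and gene (rows, by class and then by log2 fold change; the color scale ends at ±0.8). Deficient mouse 2 is highest for 14 genes and lowest for Dusp1, Dusp5, Ier2 and Gadd45b, and wild-type mouse 2 is lowest for 19.

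Averaged over the 42 genes, the log2 deviation from each gene's mean was 0.06, 0.04 and 0.19 in deficient mice, against −0.13, −0.19 and 0.03 in wild-type mice. Wild-type mouse 3 lay nearly level with deficient mouse 2, so the class mean separates the genotypes by little. For the transcription factors it was 0.12, 0.09 and 0.19 in deficient mice, against −0.21, −0.22 and 0.03 in wild-type mice. For the effectors it was 0.02, 0.06 and 0.17 in deficient mice, against −0.08, −0.18 and 0.01 in wild-type mice. In both classes wild-type mouse 3 was the highest of its genotype, and no deficient mouse was lower than any wild-type mouse, although deficient mouse 1 and wild-type mouse 3 were nearly level in the effectors. For the phosphatases it was 0.002, −0.32 and 0.24 in deficient mice, against 0.01, −0.09 and 0.15 in wild-type mice. The genotypes overlap there, and deficient mouse 2 is lowest.

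The average of the 12 excitatory neuron markers was −0.07, 0.18 and 0.08 in deficient mice, against −0.06, −0.13 and −0.003 in wild-type mice, and that of the 12 cerebellar markers was 0.40, −2.14 and −0.02 in deficient mice, against 0.51, 0.56 and 0.69 in wild-type mice. Deficient mouse 2 thus has the highest excitatory and by far the lowest cerebellar average, and it is also highest for Nr4a3, Homer1, Plk2 and Nptx2. The part of these markers in the differences of the immediate early genes was not tested. With deficient mouse 2 left out, the median log2 fold change of the class was 0.26 and 35 of 42 genes were above 0. Nr4a3 gave 0.39 then. The 12 cerebellar markers still had a median of −0.42, with 2 called lower, where 4.47% of all genes tested were called in either direction. The excitatory median was 0.09, with none called. With all mice, 10 of the 12 cerebellar markers had every deficient mouse below every wild-type mouse, where 16% of all genes tested did. Of the other lists, microglia markers had 2 of 9 called higher, oligodendrocyte markers 2 of 8 lower and astrocyte markers 1 of 8 higher, where 2.45% of all genes tested were called higher and 2.48% lower. Markers of the olfactory bulb and newborn neurons and of the hypothalamus each had 2 of 7 called higher, and red blood cell markers 1 of 5 lower. Without deficient mouse 3 or any 1 of the wild-type mice none of these markers was called in edgeR's test, except 2 of the hypothalamus without wild-type mouse 2. In edgeR's test none of the inhibitory, striatal and choroid plexus markers was called, nor by DESeq2 or limma-voom, and 1 inhibitory marker was higher and 1 lower at an unadjusted p under 0.05.

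**Figure D4:**
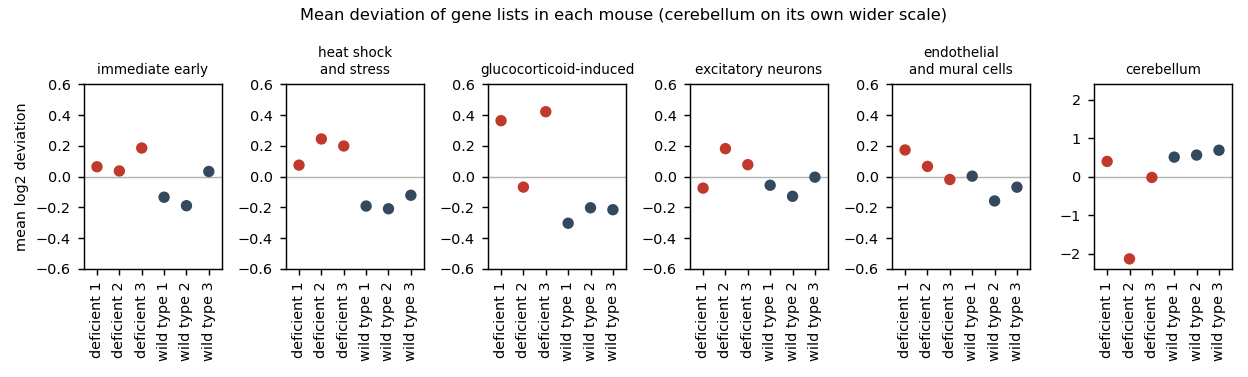
Mean over each list of log2 CPM minus the gene's own mean, for each mouse, in 6 panels with deficient mice left of wild-type mice; the cerebellum panel has its own wider scale. Deficient mouse 2 is lowest in the cerebellar list (−2.14) and highest in the excitatory list (0.18), while all deficient mice lie above wild-type mice for the heat shock list.

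In edgeR's test with all mice, the route upstream of the class had a share of calls near that of all genes tested. Of 38 receptors, calcium and ERK kinases, CREB and SRF factors and their coactivators, 1 was called higher (2.63%, against 2.45% of all genes tested) and none lower in edgeR's test, with 8 higher and 6 lower at an unadjusted p under 0.05 (12.1% and 12.8% of all genes tested) and a median log2 fold change of 0.001. DESeq2 called 3 higher and 3 lower, where it called 7.99% of all genes tested. Limma-voom called 1 each way, where it called 4.65%. Without deficient mouse 1, edgeR's test called 9 higher and 4 lower, where 13.6% of all genes tested were called. Without deficient mouse 2 or 3, 1 was called lower and none higher, where 4.47% and 1.01% of all genes tested were called. Without any 1 of the wild-type mice none was called. Mapk3, which encodes ERK1, had 178, 198 and 178 CPM in deficient mice, against 159, 155 and 156 CPM in wild-type mice. It rose by a log2 fold change of 0.24 ± 0.05 (edgeR adjusted p = 0.0453), without overlap. Of the 6 omissions of a mouse, it passed only without deficient mouse 1, and the call was also lost with upper quartile scaling (adjusted p = 0.0512) and with GC and length offsets (0.113). Next in the list came Crtc2, a CREB coactivator, at −0.43 ± 0.10 (adjusted p = 0.0538), Arnt2, the partner of Npas4, at 0.26 ± 0.07 (adjusted p = 0.0703), and Rps6ka5, the kinase MSK1, at −0.32 ± 0.09 (adjusted p = 0.0808).

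A list of 30 other activity-induced genes had 2 called higher (6.67%, against 2.45% of all genes tested) and 1 lower, with a median log2 fold change of 0.09. Without deficient mouse 2 only the lower call was left, and without deficient mouse 3 or any 1 of the wild-type mice there was none in edgeR's test. Dusp2, a further nuclear ERK phosphatase, had 1.93, 1.93 and 1.70 CPM in deficient mice, against 1.09, 0.979 and 0.656 CPM in wild-type mice (1.02 ± 0.22, edgeR adjusted p = 0.0418). Pcsk1, a protease that processes neuropeptide precursors, had 31.5, 39.1 and 35.1 CPM in deficient mice, against 27.2, 27.7 and 28.1 CPM in wild-type mice (0.35 ± 0.08, adjusted p = 0.0449). Ccnl1, a cyclin tied to RNA splicing, fell to 30.7, 26.2 and 32.9 CPM in deficient mice, against 39.7, 42.3 and 36.7 CPM in wild-type mice (−0.40 ± 0.09, adjusted p = 0.0431). All 3 genes were without overlap. Dusp2 and Pcsk1 passed only without deficient mouse 1 among the 6 omissions, DESeq2 did not call Dusp2 (adjusted p = 0.0544), and limma-voom did not call Pcsk1 (0.0508). Next were Kdm6b (−0.33, adjusted p = 0.0681), Pim1 (−0.44, adjusted p = 0.0918) and Vgf (0.24, adjusted p = 0.0932).

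Heat shock and stress genes, induced through a different route, were measured beside them. Of 10, 4 were called higher (2.45% of all genes tested were) and none lower in edgeR's test, with 8 higher and none lower at an unadjusted p under 0.05 and a median log2 fold change of 0.24. DESeq2 called 5 higher and limma-voom 4, and both none lower. Without wild-type mouse 3, 1 was called, and without deficient mouse 3 or wild-type mouse 1 or 2 none was in edgeR's test. Hspa5 and Calr, chaperones of the endoplasmic reticulum, gave 0.27 ± 0.05 (edgeR adjusted p = 0.0228) and 0.24 ± 0.05 (adjusted p = 0.0306). Hspa1a and Hspa1b gave 1.16 and 1.12 (adjusted p = 0.0186 and 0.0164), but they are near-identical copies whose reads cannot be told apart. Next came Dnajb1 (0.24, adjusted p = 0.0553), Hspe1 (0.14, adjusted p = 0.139) and Hsph1 (0.13, adjusted p = 0.152). Hspa8, the constitutive relative of Hspa1a, named after its values were seen, had 53.6, 161 and 154 CPM in deficient mice, against 141, 149.1 and 149.4 CPM in wild-type mice, so deficient mouse 1 alone was low. The average deviation of the list was 0.08, 0.25 and 0.20 in deficient mice, against −0.19, −0.21 and −0.12 in wild-type mice, and its part in the immediate early genes was not tested.

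Beyond their regulation the 42 share a compact structure. Their longest transcripts had a median of 4 exons, against 8 over all genes tested with an annotation, and 35 of 42 (83.3%) had up to 5 exons, against 37.2%. Of the 42, 5 had a single exon (11.9%, against 5.32%), the median length was 2993 nt, against 3403 nt, and the median GC content was 54.0%, against 49.9%. With GC and length offsets in the fit, 6 were called higher, Fosl2 and Homer1 besides the 4, where 2.51% of all genes tested were. The median log2 fold change of the 42 was then 0.24.

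In the authors' deposited table, whose fold changes run wild type over deficient and are shrunken, 20 of the 42 were higher and 2 lower in deficient mice at an unadjusted p under 0.05. Of the 21035 rows with a p-value in the authors' deposited table, 6.94% were higher and 7% lower by that rule. With the sign turned, the authors' deposited table gives log2 fold changes of 0.39 for Egr1, 0.43 for Nr4a3, 0.39 for Klf2 and 0.33 for Dusp6, with unadjusted p-values of 1.21e-05, 2.83e-06, 0.00238 and 1.02e-05.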

How the data were processed

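RNA was measured in 3 deficient and 3 wild-type mice, with purification on RNeasy columns and TruSeq RNA libraries per the labels. The submitters' processing notes name DESeq2 and GRCm38; the sources used here do not give the aligner, counting program or strandedness. The authors deposited 1 raw count per gene symbol and mouse. They also deposited, per the file headers, an unadjusted p-value, a log2 fold change, a test score and a mean normalised signal, used only for comparison. No mouse had a read in 22259 of 43346 rows, and 27 symbols had turned into dates.

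Counts were tested with edgeR 4.0.16 (limma 3.58.1, R 4.3.3): the default expression filter (minimum count 10, minimum total 15) kept 15127 genes, scaling was by trimmed mean of M-values (TMM), and genotypes were compared by the quasi-likelihood test with Benjamini-Hochberg adjustment over all genes kept, threshold 0.05. CPM are relative to scaled totals, which came from 20221675 to 24555412 counts. Standard errors come from the F statistic, and log2 deviations use a prior count of 1. P-values set the genotype difference against the spread between mice within genotype, which was estimated in part from all genes kept.

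The 42 genes, the pathway lists and the marker lists were chosen with earlier results of these data known. Values in every mouse are given for genes with an adjusted p under 0.05, for up to 4 more per class with the smallest p, and for Fos, Arc, Egr1, Npas4, Bdnf and Homer1; those of Nr4a1 are given as well, chosen after they were seen. Pathway lists add up to 3 more genes. Positions, exons, GC content and overlaps are from GENCODE M21 on GRCm38 (39391 of 43344 symbols matched exactly, 943 by synonym), and promoters from RefSeq, with Cyr61 listed there as Ccn1. Alternatives were median-ratio, upper quartile and no scaling, no filter and a mean of at least 5 CPM, limma-voom, DESeq2 1.42.0, GC and length offsets, a block on the replicate number, other thresholds, and leaving out each mouse.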

Additional observations from a re-analysis of the deposited data

How the results depend on the processing

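Of 42 immediate early genes, 4 were called and 746 of all genes tested. With no low-count filter 14 and 1121 were called, with DESeq2 14 and 1209, at an adjusted p under 0.1 17 and 1792, and at an adjusted p under 0.01 0 and 44. Of the 86 pathway genes, 10 were called, against 19 with no filter, 22 with DESeq2, 24 at an adjusted p under 0.1 and 0 at an adjusted p under 0.01. Leaving out each mouse gave 0 to 15 immediate early genes, 0 to 26 pathway genes and 44 to 2098 genes in all, most without deficient mouse 1. Other scalings, limma-voom, the stricter filter and the offsets gave 3 to 6 immediate early genes. The share of all genes tested that was called was then 4.62% to 5.04%. The stricter filter tested 36 of the 42 among 11434 genes, and 21087 genes were tested with no low-count filter. All 4 genes kept their direction throughout; Klf2 was lost with no scaling. Signs reversed only for values near 0: Atf3 gave −0.0084 with no scaling and −0.027 with the GC and length offsets, and Fbxo33 gave 0.0082 with those offsets. Leaving out each mouse gave −0.19 to 0.46 for Atf3, −0.11 to 0.32 for Dusp1, −0.12 to 0.21 for Btg2, −0.0017 to 0.34 for Gadd45g, −0.30 to 0.047 for Inhba and −0.048 to 0.028 for Fbxo33; the cause was not tested. Depth limits Maff, Atf3 and Csrnp1, each under 2 CPM.

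The labels number the mice 1 to 3 in each genotype. Deviations of same-numbered mice correlated at −0.0610, −0.0542 and 0.141 over 15127 genes, and only number 3 correlated best with its own number. Correlations over all genes cannot decide whether mice of the same number were handled together, which was not tested. With the replicate number as a block, 58 genes, 1 pathway gene and 0 immediate early genes were called by edgeR's test, and the median log2 fold change of the class was 0.24.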

Other observations

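Genes that glucocorticoids induce gave log2 fold changes above 0 in all 11 tested, with a median of 0.35, and 2 of them were called higher and none lower (50.3% of all genes tested were above 0 and 2.45% called higher) by edgeR's quasi-likelihood test (8 were higher and none lower at an unadjusted p under 0.05, DESeq2 called 7 higher and limma-voom 1, and both none lower). Without deficient mouse 2, 8 were called, without deficient mouse 1 3, without wild-type mouse 3 1, and without deficient mouse 3 or wild-type mouse 1 or 2 none was in edgeR's test. Zbtb16, a zinc finger repressor, had 51.0, 52.2 and 61.4 CPM in deficient mice, against 32.7, 37.3 and 40.4 CPM in wild-type mice (0.58 ± 0.09, edgeR adjusted p = 0.0214). Plin4, a lipid droplet protein, had 22.6, 9.61 and 27.7 CPM in deficient mice, against 4.25, 6.02 and 5.55 CPM in wild-type mice (1.92 ± 0.35, adjusted p = 0.0245). Sgk1, a kinase induced by steroid hormones, had 176, 94.6 and 154 CPM in deficient mice, against 87.2, 88.2 and 89.6 CPM in wild-type mice (0.68 ± 0.19, adjusted p = 0.0704), and Mt1 and Fkbp5 gave 0.35 and 0.34 (adjusted p = 0.0613 and 0.0675). The summed level of the 11 was 961, 716 and 939.9 CPM in deficient mice, against 657, 690.3 and 667 CPM in wild-type mice. Deficient mouse 2 was close to the wild-type mice in this sum. The average log2 deviation of the 11 was 0.36, −0.07 and 0.42 in deficient mice, against −0.30, −0.20 and −0.21 in wild-type mice. Deficient mouse 2 was thus the lowest deficient mouse here. In the average over the 42 immediate early genes, deficient mice 1 and 2 were nearly level (0.06, 0.04 and 0.19 in deficient mice). In the share of counts held by the 42, deficient mouse 1 was the lowest deficient mouse (0.147, 0.155 and 0.163%). The part of the 11 genes in the differences of the immediate early genes was not tested.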
